A study of Mus musculus with 12 samples.

Results

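The genes described are the leukaemia inhibitory factor receptor Lifr, the interleukin-6 (IL-6) family receptor chains Il6ra, Il6st and Osmr, the interleukin-1 receptor Il1r1, the signalling genes Stat3 and Socs3, the transcription factors Cebpb and Cebpd, and the epidermal growth factor receptor Egfr. They were chosen as a named list of 10 genes and matched by gene symbol to probe sets, the groups of array probes that report a transcript, with each gene read from its brightest probe set that carries a single symbol. Of the 10, 9 had such a probe set, among 19935 genes in all, and 8 were bright enough to test, among 13987 genes tested. Il1r1 had no such probe set, so its expression was not analysed here, and only its promoter windows were searched. Cebpd fell below the brightness limit, with intensities between 27.9 and 57.1 and 0 of 12 arrays above it, so no level or change is given for it.

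Transcripts were measured in whole liver of ovariectomised C57BL/6 mice aged 3 months on the Affymetrix Mouse Gene 1.0 ST array. The mice were wild type (WT), ERKO, which lack oestrogen receptor alpha, or MOER, described as having that receptor at the membrane only; the sources used here do not say how either line was built. After 1 week of recovery all mice were injected for 3 days, either daily with 100 µg of PPT, an agonist of oestrogen receptor alpha, or with 0.1 mL of oil. An array held RNA pooled from 3 animals, and the 6 groups of genotype and treatment had 2 arrays each, 12 in all. The sources used here do not show which arrays came from separate pools, so p-values measure only the spread between these arrays.

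LIF receptor, IL-6 receptor alpha and oncostatin M receptor each pair with the shared chain gp130, encoded by Il6st, and pass the signal through JAK kinases to the transcription factor STAT3. STAT3 switches on acute phase genes in hepatocytes together with C/EBP factors, and it also switches on Socs3, whose protein binds gp130 and damps the signal. Mouse liver also makes a soluble LIF receptor, which rises in pregnancy, and the array's single value for Lifr does not separate the soluble and membrane forms.

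Promoter sequence is shown for the genes that were called in opposite directions in WT and MOER, Lifr, Il6st and Egfr, and for Socs3, the classic STAT3 target. RefSeq (GRCm38.p6) gave windows of 250 bases before to 50 bases after a start site for 9 of the 10 genes, 11 windows in all. Only the 250 bases before the start are printed, 5′ to 3′ on the gene's strand, with motif matches in capitals. Lifr has 2 start sites in the table, both on the plus strand, at chr15:7129322-7129571 and chr15:7140292-7140541. The other stretches are chr11:16751953-16752202 for Egfr and chr13:112463820-112464069 for Il6st, both on the plus strand, and chr11:117969367-117969616 for Socs3 on the minus strand.
Lifr, first start: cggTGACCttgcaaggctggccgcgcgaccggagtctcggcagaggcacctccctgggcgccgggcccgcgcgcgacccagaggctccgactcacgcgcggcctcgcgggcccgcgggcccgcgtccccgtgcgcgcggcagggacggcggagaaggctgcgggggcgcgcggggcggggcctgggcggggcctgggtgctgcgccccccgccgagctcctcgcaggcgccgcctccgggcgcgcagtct
Lifr, second start: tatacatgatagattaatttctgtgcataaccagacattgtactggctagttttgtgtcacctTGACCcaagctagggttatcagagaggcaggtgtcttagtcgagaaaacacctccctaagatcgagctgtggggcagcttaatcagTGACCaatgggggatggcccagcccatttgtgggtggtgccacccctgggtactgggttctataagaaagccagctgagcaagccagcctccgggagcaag
Il6st: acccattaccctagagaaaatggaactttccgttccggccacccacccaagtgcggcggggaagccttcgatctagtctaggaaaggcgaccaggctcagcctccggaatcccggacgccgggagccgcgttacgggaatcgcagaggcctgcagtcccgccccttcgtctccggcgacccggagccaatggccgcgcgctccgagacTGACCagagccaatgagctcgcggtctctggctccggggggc
Egfr: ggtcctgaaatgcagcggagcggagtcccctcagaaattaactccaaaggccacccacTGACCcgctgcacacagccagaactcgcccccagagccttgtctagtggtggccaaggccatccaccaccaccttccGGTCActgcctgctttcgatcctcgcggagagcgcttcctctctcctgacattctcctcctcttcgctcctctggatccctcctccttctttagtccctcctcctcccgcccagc
Socs3: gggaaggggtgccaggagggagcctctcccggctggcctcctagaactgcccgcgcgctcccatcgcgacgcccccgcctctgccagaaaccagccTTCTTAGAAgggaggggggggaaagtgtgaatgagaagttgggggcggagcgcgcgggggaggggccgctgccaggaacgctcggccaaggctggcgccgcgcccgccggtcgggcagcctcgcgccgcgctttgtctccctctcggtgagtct

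The letters searched, on both strands, were the oestrogen response element GGTCANNNTGACC, its half-site GGTCA, the STAT site TTCNNNGAA, the C/EBP site TTGCNNAA and the AP-1 site TGANTCA; a full oestrogen element contains the half-site at each end. The full element was in 0 of the 11 windows of the listed genes and in 0.07% of all 32851 windows of this length. The half-site was in 40.5% of all windows. It occurred 1 time in the first Lifr window and 2 times in the second. Egfr and Il6st also had 2 each, and in Il6st 1 of the 2 lies after the start. Cebpb and an Il1r1 window had 1 each. The other Il1r1 window had a C/EBP match, TTGCTGAA, at bases -133 to -126, against 10.8% of all windows. Socs3 had the only STAT-site match among the windows, TTCTTAGAA at bases -154 to -146 from the start, a motif found in 8.3% of all windows. Osmr had an AP-1 match, TGATTCA, at bases 3 to 9, against 7.81% of all windows. The first Lifr window was 81.3% G and C and the second 53.3%, beside a median of 52.7% over all windows.

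The array medians lay between 77.5 and 85.26, so the deposited intensities were compared without further scaling. Arrays of a group correlated at 0.994 to 0.997 over probe sets, except the ERKO oil arrays at 0.982, where 162 probe sets lay over 2-fold apart against 2 to 21 in the other groups. ERKO responses and differences from them are therefore also given without each ERKO oil array. Esr1, which encodes oestrogen receptor alpha, averaged 356 ± 12.6 and 317 ± 11.6 in WT (oil and PPT; SD, n = 2), 122 ± 5.62 and 154 ± 11.3 in ERKO, and 127 ± 0.926 and 124 ± 10 in MOER. Summed hepatocyte markers, 8 of 8 above the brightness limit in every group, lay between 84694 and 114807. Pancreatic acinar markers summed to 16813 and 18331 in the MOER oil arrays, with 7 of 7 genes above the limit, and to 339 to 519 in all other groups; no marker was listed at 0.

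In WT livers, PPT raised Lifr and Cebpb and lowered Il6ra, Il6st and Egfr, while Osmr, Stat3 and Socs3 did not pass the test. In MOER livers Il6st, Osmr, Stat3, Socs3 and Egfr rose and Lifr fell. Thus 3 of the 8 genes, Lifr, Il6st and Egfr, changed in opposite directions in WT and MOER. Every MOER response uses the MOER oil arrays, where pancreatic acinar markers were high. The part of those markers in the MOER responses was not tested. In ERKO livers Socs3 and Egfr rose and Il6ra and Stat3 fell, by 1.26- to 1.33-fold in mean intensity. Responses below are log2(intensity + 16) under PPT minus oil, with the standard error of a limma fit over all 12 arrays and Benjamini-Hochberg adjusted p-values over 19119 probe sets, called at an adjusted p under 0.05. This scale understates the change of dim genes such as Osmr.

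The calls in WT were 5 of 8 tested genes, where 31% of all probe sets were called. By direction, 2 rose, where 14.8% of all probe sets rose, and 3 fell, where 16.2% fell. In ERKO the calls were 4 of 8 beside 17.9%, with 2 higher (9.48% of all probe sets) and 2 lower (8.46%). In MOER they were 6 of 8 beside 4.66%, with 5 higher (2.35%) and 1 lower (2.31%). The median response of the 8 genes was -0.21 in WT, 0.01 in ERKO and 0.59 in MOER, against medians over all tested probe sets of 0.02, 0.03 and 6e-04.

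**Figure D1:**
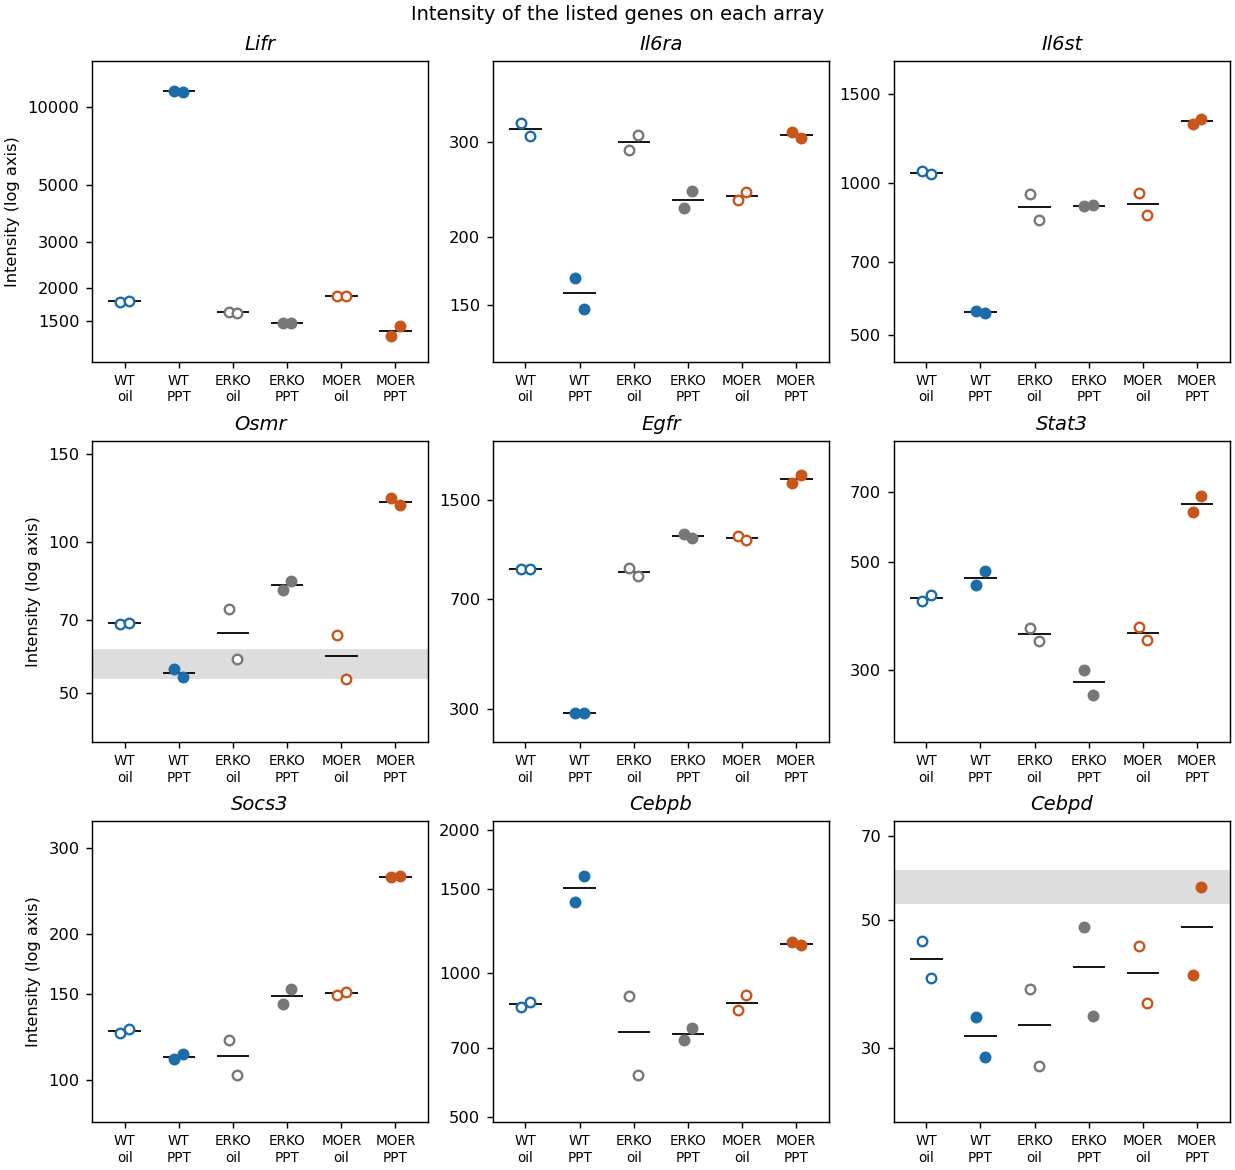
Intensity (log axis, its range differing between panels) of the 9 listed genes with a probe set, for each of 12 arrays; open circles are oil, filled circles PPT, the bar is the mean of 2 arrays, and the grey band is the range of the arrays' 40th percentiles, 53.6 to 61.0. Lifr stands at 11361 and 11507 in WT PPT and between 1305 and 1871 elsewhere, and Cebpd lies under the limit of its own array throughout.

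Lifr (probe set 10422822, chromosome 15) encodes the signalling chain that binds leukaemia inhibitory factor. In WT livers its intensity was 1774 and 1794 under oil and 11507 and 11361 under PPT. In ERKO livers it was 1618 and 1611 with oil and 1467 and 1468 with PPT. In MOER livers it was 1871 and 1859 under oil and 1305 and 1436 under PPT. The WT PPT arrays were thus over 6 times as bright as every other group. In both other genotypes the PPT arrays lay below the oil arrays, though the ERKO response was not called.

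The WT response of Lifr was 2.67 ± 0.083 (adjusted p = 5.13e-09), a 6.41-fold ratio of mean intensities. It fell by 0.44 in MOER (SE 0.083, adjusted p = 0.0114), and in ERKO the response of -0.14 ± 0.083 did not pass (adjusted p = 0.293; 95% interval -0.32 to 0.05), nor did it without ERKO oil replicate 1 (-0.13, adjusted p = 0.272) or replicate 2 (-0.14, adjusted p = 0.248). The WT response exceeded that in MOER by 3.11 ± 0.12 (adjusted p = 4.99e-08) and that in ERKO by 2.80 ± 0.12 (adjusted p = 8.04e-08); these 2 differences share the WT arrays. The MOER and ERKO responses did not differ beyond the threshold (-0.31 ± 0.12, adjusted p = 0.124). The fall in MOER missed the threshold without MOER oil replicate 1 (-0.44, adjusted p = 0.0994), MOER oil replicate 2 (-0.45, adjusted p = 0.0867) or MOER PPT replicate 1 (-0.37, adjusted p = 0.117), whereas the WT rise held in all 12 fits that leave out an array. Pancreatic acinar markers fell in the same MOER comparison (6 of 7 tested), and their part in the result was not tested. In the whole-liver RNA used here, fewer cells of a type and less RNA per cell cannot be told apart.

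Il6ra (probe set 10499655, chromosome 3) encodes the chain that binds IL-6 itself. Its intensity in WT was 325 and 307 under oil and 168 and 147 under PPT. In ERKO the values were 289.8 and 308 under oil and 226 and 243 with PPT; the MOER arrays gave 234 and 242 under oil and 312 and 305 under PPT. PPT arrays lay below oil arrays in WT and ERKO and above them in MOER, and the MOER PPT arrays lay near the WT oil arrays. The WT fall was -0.94 ± 0.093 (adjusted p = 2.15e-05), a 2.01-fold difference in mean intensity, and the ERKO fall -0.33 ± 0.093 (adjusted p = 0.0330). The MOER value of 0.35 ± 0.093 did not pass (adjusted p = 0.0607), but did without either ERKO oil array (adjusted p = 0.0266). The MOER response lay above that of WT by 1.29 (WT minus MOER -1.29 ± 0.13, adjusted p = 4.94e-05) and above that of ERKO by 0.68 ± 0.13 (adjusted p = 0.00829). The ERKO fall was -0.37 (adjusted p = 0.0224) without ERKO oil replicate 1 and -0.29 (adjusted p = 0.0575) without replicate 2, and it missed the threshold in 7 of the 12 fits that leave out an array, with adjusted p up to 0.165 (without ERKO PPT replicate 1).

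Il6st (probe set 10407173, chromosome 13) encodes gp130, the chain that the receptors for IL-6, leukaemia inhibitory factor and oncostatin M share. In WT it read 1056 and 1042 under oil and 560.1 and 555 under PPT. In ERKO it read 951 and 846 under oil and 900.2 and 908 with PPT; the MOER arrays gave 957 and 868 under oil and 1311 and 1343 under PPT. The PPT arrays were the lowest of all 12 in WT and the highest of all 12 in MOER, while the ERKO PPT arrays lay between the ERKO oil arrays. The response was -0.89 ± 0.091 in WT (adjusted p = 2.71e-05), 0.01 ± 0.091 in ERKO (adjusted p = 0.950; 95% interval -0.19 to 0.21) and 0.53 ± 0.091 in MOER (adjusted p = 0.00602). The ERKO value was 0.09 (adjusted p = 0.440) without ERKO oil replicate 1 and -0.07 (adjusted p = 0.556) without replicate 2. WT and MOER differed by -1.43 ± 0.13 (adjusted p = 2.24e-05) and WT and ERKO by -0.90 ± 0.13 (adjusted p = 5.73e-04). The MOER rise missed the threshold without MOER oil replicate 2 (0.47, adjusted p = 0.0829) or MOER PPT replicate 2 (0.52, adjusted p = 0.0578).

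Osmr (probe set 10427471, chromosome 15) encodes the oncostatin M receptor chain and was the dimmest gene tested. It read 68.7 and 69.0 in WT oil and 55.8 and 53.9 in WT PPT, where 0 of 2 arrays passed the brightness limit. In ERKO it read 73.6 and 58.5 under oil and 80.3 and 83.9 with PPT; the MOER arrays gave 65.4 and 53.3 under oil and 122 and 118 under PPT. The MOER PPT arrays were the brightest of the 12, at 2.03 times the MOER oil mean, of which 1 of 2 arrays passed the limit. The MOER response was 0.86 ± 0.11 (adjusted p = 8.99e-04), and it held in all 12 fits that leave out an array. The values of -0.26 ± 0.11 in WT (adjusted p = 0.103) and 0.26 ± 0.11 in ERKO (adjusted p = 0.128) did not pass; the WT value passed without either ERKO oil array (adjusted p = 0.0353), and the ERKO value was 0.40 (adjusted p = 0.0215) without ERKO oil replicate 1 and 0.13 (adjusted p = 0.373) without replicate 2. The MOER response was larger than the WT response (WT minus MOER -1.12 ± 0.16, adjusted p = 4.40e-04); because WT PPT is below the limit, the size of this difference depends on the added 16, ranging from -1.34 to -0.74 over the alternative settings. Lifr and Osmr are neighbours in the order of protein-coding genes on chromosome 15, with Osmr next before Lifr. Of the 3 protein-coding genes on either side, looked up after the values were seen, 5 were tested; Rictor fell in WT (-0.41, adjusted p = 0.00971) and in ERKO (-0.45, adjusted p = 0.0127), Osmr rose in MOER, and no gene among them rose with Lifr in WT.

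**Figure D2:**
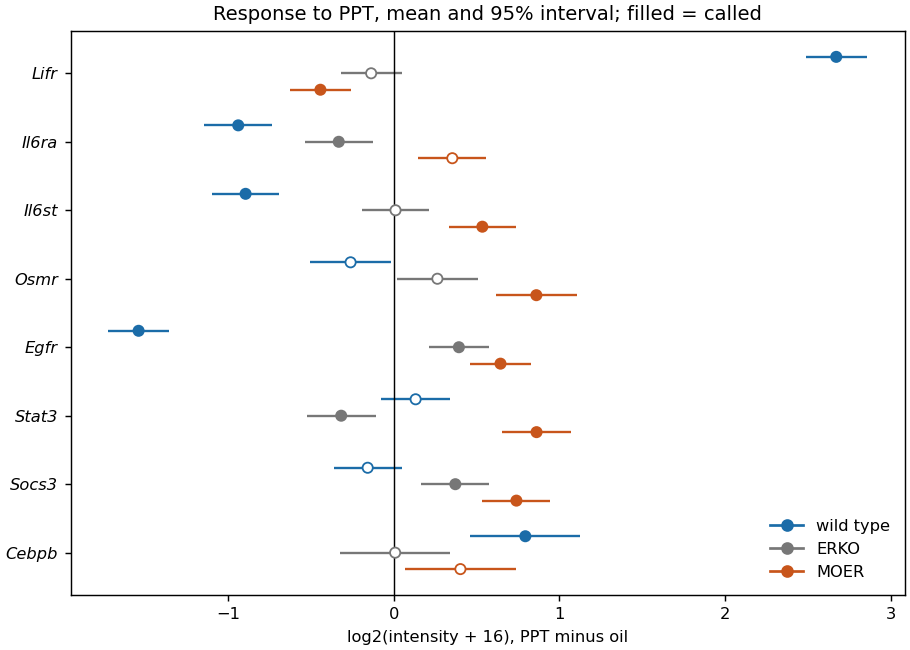
Response to PPT of the 8 tested genes in WT, ERKO and MOER livers, as log2(intensity + 16) under PPT minus oil with the 95% interval of the limma fit; filled points passed an adjusted p under 0.05. Lifr lies at 2.67 in WT and -0.44 in MOER, and Il6st and Egfr lie below 0 in WT and above 0 in MOER.

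Egfr (probe set 10374366, chromosome 11) encodes the receptor for epidermal growth factor and related ligands, which is abundant on hepatocytes. Its intensity in WT was 879 and 880.4 under oil and 292 and 293 under PPT. In ERKO it was 885 and 837 under oil and 1155 and 1117 with PPT; the MOER arrays gave 1130.4 and 1104 under oil and 1704 and 1807 under PPT. PPT thus divided the WT level by 3.01, and multiplied it by 1.32 in ERKO and 1.57 in MOER, with no overlap between oil and PPT arrays in any genotype. The responses were -1.54 ± 0.082 (adjusted p = 2.40e-07), 0.39 ± 0.082 (adjusted p = 0.00927) and 0.64 ± 0.082 (adjusted p = 8.63e-04) in that order. The WT response lay below that of MOER by 2.18 (WT minus MOER -2.18 ± 0.12, adjusted p = 6.01e-07) and below that of ERKO (WT minus ERKO -1.93 ± 0.12, adjusted p = 1.13e-06). MOER and ERKO did not differ beyond the threshold (0.25 ± 0.12, adjusted p = 0.202; 95% interval -0.01 to 0.51). The ERKO rise was 0.43 (adjusted p = 0.00516) without ERKO oil replicate 1 and 0.35 (adjusted p = 0.0135) without replicate 2. It missed the threshold without ERKO PPT replicate 1 (0.37, adjusted p = 0.0635) or replicate 2 (0.42, adjusted p = 0.0529).

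Stat3 (probe set 10391301, chromosome 11) encodes the transcription factor that carries the gp130 signal to the nucleus. It read 416 and 429 in WT oil and 449 and 480.3 in WT PPT. In ERKO it read 366 and 344 under oil and 299 and 266 with PPT; the MOER arrays gave 368 and 346 under oil and 638 and 686 under PPT. The MOER PPT arrays were above and the ERKO PPT arrays below all other arrays. Stat3 rose by 0.86 ± 0.094 in MOER (adjusted p = 2.87e-04), a 1.85-fold ratio of means. The WT value of 0.13 ± 0.094 did not pass (adjusted p = 0.333; 95% interval -0.08 to 0.34). The ERKO fall of -0.32 ± 0.094 passed narrowly (adjusted p = 0.0426) and was lost in 11 of 12 fits that leave out an array, at -0.27 (adjusted p = 0.0741) without ERKO oil replicate 1 but -0.36 (adjusted p = 0.0300) without replicate 2. The MOER response exceeded that of ERKO by 1.18 ± 0.13 (adjusted p = 2.93e-04) and that of WT (WT minus MOER -0.73 ± 0.13, adjusted p = 0.00255), and both differences held in all 12 such fits.

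Socs3 (probe set 10393449, chromosome 11) encodes the inhibitor that feeds back on gp130. It read 124.8 and 127 in WT oil and 110.1 and 113 in WT PPT. In ERKO it read 121 and 102 under oil and 144 and 154 with PPT; the MOER arrays gave 149.8 and 152 under oil and 262 and 263 under PPT. The MOER PPT arrays were the brightest and agreed closely with each other. The response was 0.74 ± 0.093 in MOER (adjusted p = 7.44e-04), 0.37 ± 0.093 in ERKO (adjusted p = 0.0206) and -0.16 ± 0.093 in WT (adjusted p = 0.238). WT differed from MOER by -0.90 ± 0.13 (adjusted p = 5.91e-04) and from ERKO by -0.53 ± 0.13 (adjusted p = 0.0149). Without ERKO oil replicate 1 the ERKO rise was 0.48 (adjusted p = 0.00335), and without replicate 2 it was 0.27 (adjusted p = 0.0383); it missed the threshold without ERKO PPT replicate 1 (0.42, adjusted p = 0.0584) or replicate 2 (0.33, adjusted p = 0.142). The second, dimmer Socs3 probe set (10383010) was called in no comparison and gave 0.28 ± 0.24 in MOER (adjusted p = 0.688), and with the mean of both probe sets the ERKO rise and both differences from WT missed the threshold.

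Cebpb (probe set 10478890, chromosome 2) encodes C/EBP beta, formerly called nuclear factor for IL-6 expression, which acts beside STAT3 on acute phase genes. It read 849 and 874 in WT oil and 1414 and 1602 in WT PPT. In ERKO it read 899 and 612 under oil and 725 and 769 with PPT; the MOER arrays gave 838 and 901 under oil and 1161 and 1145 under PPT. PPT arrays lay above oil arrays in WT and MOER, and in ERKO they lay between the oil arrays, which were far apart. The WT rise was 0.79 ± 0.15 (adjusted p = 0.00208), while the MOER value of 0.40 ± 0.15 did not pass (adjusted p = 0.216) unless an ERKO oil array was left out (adjusted p = 0.0160), and the ERKO value was 0.01 ± 0.15 (adjusted p = 0.977). The ERKO value was 0.28 (adjusted p = 0.0652) without ERKO oil replicate 1 and -0.26 (adjusted p = 0.0805) without replicate 2. The WT and MOER responses did not differ beyond the threshold (0.39 ± 0.21, adjusted p = 0.250; 95% interval -0.08 to 0.86); without either ERKO oil array the same difference passed (adjusted p = 0.0305).

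Differences between genotypes under oil were few among these genes. Between ERKO and WT, 0 of 8 were called (limma; 5.01% of all probe sets), and 2, Il6st and Stat3, had an unadjusted p under 0.05. Without ERKO oil replicate 1, Il6st (-0.31, adjusted p = 0.0257), Socs3 (-0.26, adjusted p = 0.0347) and Cebpb (-0.48, adjusted p = 0.00859) were called lower in ERKO. Between MOER and WT, 2 of 8 were called (5.66% of all probe sets; 2.13% higher and 3.53% lower): Il6ra was lower by 0.39 (-0.39 ± 0.093, adjusted p = 0.0373) and Egfr higher by 0.34 ± 0.082 (adjusted p = 0.0394) in MOER. Between MOER and ERKO, Egfr alone was called (2.05% of all probe sets; 0.894% higher and 1.16% lower), higher in MOER by 0.37 ± 0.082 (adjusted p = 0.0498). Each of these 3 calls was lost in 10 of the 12 fits that leave out an array, with adjusted p up to 0.233 for Il6ra (without WT oil replicate 1), 0.206 for Egfr against WT (without WT oil replicate 1) and 0.272 for Egfr against ERKO (without MOER oil replicate 2). In both oil comparisons of MOER, 7 of 7 pancreatic acinar markers were higher in MOER, and their part in these calls was not tested. Against ERKO, Egfr was higher by 0.41 (adjusted p = 0.0162) without ERKO oil replicate 1 and 0.33 (adjusted p = 0.0452) without replicate 2, and without replicate 1 Socs3 (0.49, adjusted p = 0.00825) and Cebpb (0.49, adjusted p = 0.0177) were also called higher in MOER.

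The differences between responses covered most of the genes. WT and MOER responses differed for 7 of 8 (21.6% of all probe sets), 6 lower (11.1%) and 1, Lifr, higher (10.5%) in WT. WT and ERKO responses differed for 8 of 8 (22.3%), with Lifr, Stat3 and Cebpb higher (10.3%) and the other 5 lower (12%) in WT. MOER and ERKO responses differed for 4 of 8 (11.5%), Il6ra, Il6st, Osmr and Stat3, each higher in MOER (5.88% higher and 5.59% lower over all probe sets). The differences of Il6st and Osmr were lost in 9 of 12 fits that leave out an array, with adjusted p up to 0.107 and 0.128 without MOER oil replicate 2, and those of Il6ra and Stat3 in 0. The ERKO differences of Osmr, Stat3 and Cebpb, were lost in 9, 7 and 5 of 12 fits, with adjusted p up to 0.112 and 0.0909 for Osmr and Cebpb without WT PPT replicate 2 and 0.137 for Stat3 without ERKO PPT replicate 2. That of Socs3 was lost in 3, with adjusted p up to 0.0641 without ERKO PPT replicate 2.

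Leaving out an ERKO oil array moved the differences from ERKO as follows, the value without replicate 1 given first. WT minus ERKO was 2.80 and 2.81 for Lifr, -0.56 and -0.65 for Il6ra, -0.99 and -0.82 for Il6st, and -1.97 and -1.89 for Egfr. It was 0.40 and 0.49 for Stat3, -0.63 and -0.42 for Socs3, and 0.51 and 1.06 for Cebpb, and all of these passed. For Osmr it was -0.66 (adjusted p = 0.00513) and -0.39 (adjusted p = 0.0579). The direction of every WT minus ERKO difference was thus kept, while the size for Cebpb and Osmr depended on the array. MOER minus ERKO was 0.73 and 0.64 for Il6ra, 0.44 and 0.61 for Il6st, 0.46 and 0.73 for Osmr, and 1.13 and 1.22 for Stat3, and all of these passed. Without replicate 2 the MOER minus ERKO differences of Socs3 (0.47, adjusted p = 0.0146) and Cebpb (0.67, adjusted p = 0.00884) also passed; without replicate 1 they were 0.26 (adjusted p = 0.0940) and 0.12 (adjusted p = 0.518). Those of Lifr (-0.31 and -0.30) and Egfr (0.21 and 0.29) passed in neither fit.

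Lifr, Il6st and Egfr were called in opposite directions in WT and MOER, 3 of 8 tested genes, where 1.44% of all probe sets were; 0 of 8 were called in the same direction, where 1.94% of all probe sets were. The MOER calls of Lifr and Il6st did not hold in every fit that leaves out an array. A Cyber-T-style test at the authors' threshold called 0 of the 8 genes in MOER. The listed genes were also chosen with earlier results of these data known. The WT and MOER responses share no arrays. The MOER response uses the MOER oil arrays, where pancreatic acinar markers were high, and the part of those markers was not tested. Among 92 tested companion genes, the genes of 9 lists of IL-6 family, JAK-STAT, acute phase, IL-1 and TNF, EGF family and C/EBP genes, 7 were called in opposite directions and 10 in the same direction. The 7, picked out by this result, were Jak1, Socs2, Steap4, Lbp, Fga, Hamp and Erbb3. Jak1, a kinase that works with gp130, fell by 0.50 in WT (adjusted p = 0.00134) and rose by 0.41 in MOER (adjusted p = 0.0240). Erbb3, a partner receptor of Egfr, fell by 0.86 in WT and rose by 0.82 in MOER. The 10 in the same direction included Lcn2, Saa1, Saa2, Saa3, Serpina3n and Myd88.

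**Figure D3:**
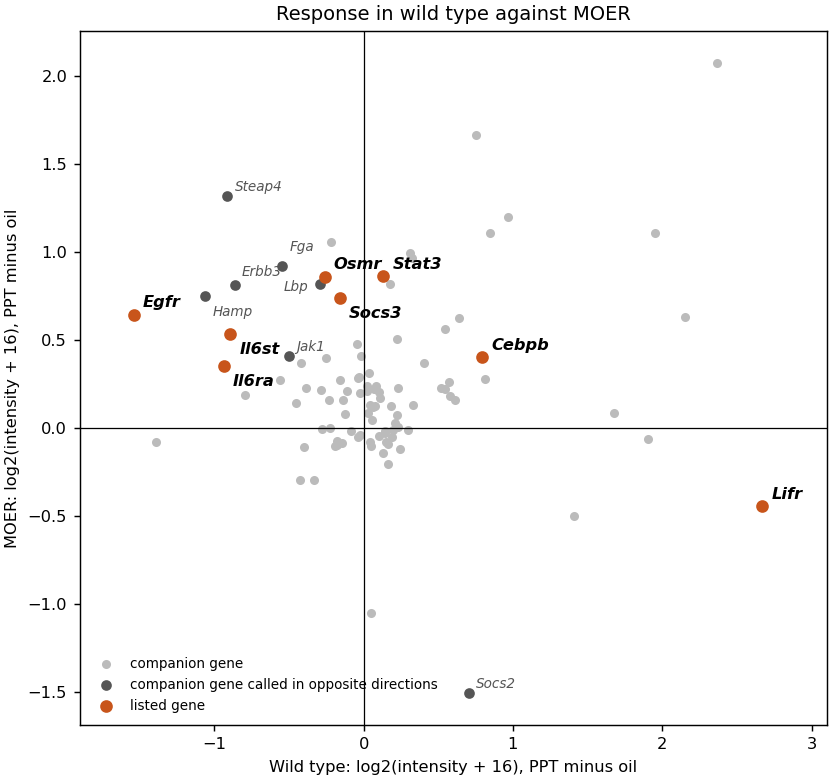
Response to PPT in WT (horizontal) against MOER (vertical), both as log2(intensity + 16) under PPT minus oil; orange points are the 8 listed genes, grey points the companion genes, and dark grey points the 7 companion genes called in opposite directions. Of the listed genes, Egfr, Il6st, Il6ra, Osmr and Socs3 lie at the upper left. Among them Il6ra was not called in MOER, and Osmr and Socs3 were not called in WT. Lifr is the only listed gene at the lower right, where companion genes, Socs2 among them, also lie.

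Of 10 ligand genes 5 were tested, and 0 of 5 were called in any of the 3 genotypes by limma; Il6, Il11 and Lif, the ligand of Lifr, were below the brightness limit, so their levels are not measured. Of the remaining receptors, 2 of 2 tested were called in WT (31% of all probe sets) and 0 of 2 in ERKO (17.9%) or MOER (4.66%). In WT, Il27ra, a partner of gp130, rose (0.54, adjusted p = 0.0493), and Lepr, the leptin receptor, which is related to gp130 but signals without it, fell (-0.43, adjusted p = 0.0453). Lepr was also lower in ERKO than in WT under oil (-0.64, adjusted p = 0.0332).

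Among JAK and STAT genes, 1 of 7 rose and 4 fell in WT (14.8% and 16.2% of all probe sets). In ERKO 0 were called (17.9%), and in MOER 1 rose (2.35%). Stat5a, which carries growth hormone and prolactin signals, rose in WT from 137 to 473 in mean intensity (1.68 ± 0.12). Those that fell in WT included Stat2, by 0.79, Jak1, by 0.50, and Jak2, by 0.38. The list's median response was -0.29 in WT and 0.22 in MOER, against 0.02 and 6e-04 over all probe sets.

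Among the inhibitors of JAK-STAT signalling other than Socs3, 2 of 11 rose in WT, where 14.8% of all probe sets rose. In ERKO 2 fell (8.46%), and in MOER 2 fell (2.31%). Socs2, the feedback inhibitor of growth hormone signalling, rose by 0.71 ± 0.12 in WT and fell by 1.51 in MOER (SE 0.12), from a mean intensity of 302 to 96.1. Cish, a STAT5 target, was at least 1.23-fold lower under PPT in MOER (adjusted p = 8.99e-04) and at least 1.43-fold lower in ERKO (adjusted p = 0.00465), since both PPT groups were below the brightness limit, which stands in for their level. In MOER, Socs3 rose while Socs2 and Cish fell.

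Of 13 STAT3 target genes, 1 rose and 2 fell in WT, where 14.8% and 16.2% of all probe sets did. In ERKO 1 rose and 4 fell (9.48% and 8.46%), and in MOER 3 rose (2.35%). Myc rose in WT from a mean of 51.8 to 237 (1.90 ± 0.13) and was below the brightness limit in all ERKO and MOER groups. Its WT oil mean also lay below the lowest array limit, 53.58, so the size of the WT rise depends on the added 16. Steap4, a metalloreductase, fell by 0.91 in WT and 0.43 in ERKO and rose by 1.32 ± 0.082 in MOER. Lbp, which binds bacterial lipopolysaccharide, fell by 0.29 in WT and 0.72 in ERKO and rose by 0.82 ± 0.081 in MOER.

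In the list of acute phase genes, more were called higher than lower in each of the 3 genotypes. In WT 9 of 19 rose and 2 fell, where 14.8% and 16.2% of all probe sets did. In ERKO 7 rose and 1 fell (9.48% and 8.46%), and in MOER 11 rose and 0 fell (2.35% and 2.31%). Lcn2 rose in all 3, by 2.37 in WT, 0.94 in ERKO and 2.08 in MOER. Saa3 rose in ERKO from a mean of 743 to 11227 (3.89 ± 0.092). Among the listed genes in ERKO, Socs3 and Egfr rose and Il6ra and Stat3 fell, while Lifr, Il6st, Osmr and Cebpb were not called. A link between these genes and Saa3 was not tested. Under oil, 9 of these 19 genes were already higher in ERKO than in WT (5.01% of all probe sets called, either direction). In MOER 6 were higher than in WT and 1 was lower (2.13% and 3.53% of all probe sets).

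Among IL-1 and TNF signalling genes, 6 of 17 rose and 1 fell in WT (14.8% and 16.2% of all probe sets). In ERKO 1 rose and 3 fell (9.48% and 8.46%), and in MOER 3 rose (2.35%). The adaptor Myd88 rose by 0.54 in WT and 0.56 in MOER. The cytokine Il1a rose by 1.41 in WT (adjusted p = 5.9e-05), and the receptor antagonist Il1rn rose by 1.06 in MOER (adjusted p = 1.85e-04). Nfkbia, the inhibitor of NF-kappaB, rose by 0.58 in WT and fell by 0.47 in ERKO.

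In the EGF family list, 1 of 15 rose and 3 fell in WT (14.8% and 16.2% of all probe sets). In ERKO 2 fell (8.46%), and in MOER 1 rose (2.35%). Hbegf, a ligand of Egfr, rose by 0.81 ± 0.12 in WT. Errfi1, an inhibitor of Egfr, fell by 0.45 in WT and by 0.53 in ERKO. Of 3 tested C/EBP family genes other than Cebpb, Cebpa, which maintains the hepatocyte programme, fell from a mean of 1052 to 393 in WT (-1.39 ± 0.10) and from 923 to 707 in ERKO (-0.37 ± 0.10, adjusted p = 0.0336). In WT, then, Cebpb rose while Cebpa fell.

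Markers of other liver cells also moved with PPT, and their part in these results was not tested. Over all probe sets 14.8% rose and 16.2% fell in WT, 9.48% and 8.46% in ERKO, and 2.35% and 2.31% in MOER. Summed Kupffer cell markers were 8823 to 9045 in WT oil and 10570 to 10598 in WT PPT, 8858 to 10152 and 7958 to 8082 in ERKO, and 10252 to 10317 and 11480 to 11504 in MOER, with 4, 0 and 3 of 10 genes rising and 1, 5 and 1 falling. Neutrophil markers summed to 352 to 404 in WT oil and 624 to 641 in WT PPT. In ERKO the sum was 1750 to 2366 under oil and 1358 to 1395 under PPT. In MOER it was 1024 to 1161 under oil and 1006 to 1025 under PPT. Of 7 tested neutrophil genes, 3 rose and 0 fell in WT, 0 rose and 4 fell in ERKO, and 0 were called in MOER. The hepatocyte sum was 110578 to 113356 in WT oil and 85787 to 90970 in WT PPT, with 4 of 8 genes falling. The 2 ERKO oil arrays alone spanned 84694 to 114646, and 0 of 8 genes were called in ERKO or MOER. The endothelial sum was 5983 to 6250 in WT oil and 3584 to 3671 in WT PPT, with 3 of 7 genes falling and 1 rising. Within it Clec4g alone went from a mean of 4127 to 1585. The median WT response of the 7 endothelial genes was 0.02, as over all probe sets (0.02). In ERKO 2 of 7 rose and 0 fell, and in MOER 0 were called. Stellate cell markers fell in WT (3 of 8) and rose in ERKO (3 of 8), with 0 of 8 called in MOER. Of 4 tested lymphocyte markers 0 were called in any genotype, and of 3 bile duct markers 1 rose in MOER. Of 7 tested genes of handling stress, 3 rose and 1 fell in WT, 0 were called in ERKO, and 1 rose and 1 fell in MOER.

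The genes whose pattern was most like that of Lifr, by Pearson's r over the 12 arrays among 13986 other genes, were Akr1c18 (r = 0.996), Psen2 (0.996), Pitpnb (0.995), Ptgds (0.994) and Srm (0.993). All points share the same arrays, and the WT PPT arrays set most of each r: over the other 10 arrays r was 0.781, 0.777, 0.767, 0.693 and 0.908 in the same order. Akr1c18, a progesterone-inactivating enzyme, averaged 79.8 in WT oil and 3433 in WT PPT and 51.2 to 79.2 in the ERKO and MOER groups. Psen2, a subunit of gamma-secretase, averaged 1263 in WT oil, 13345 in WT PPT and 974 to 1284 elsewhere. These genes were highest in WT PPT, as Lifr was, but Lifr and Psen2 were also well above the brightness limit in every other group.

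**Figure D4:**
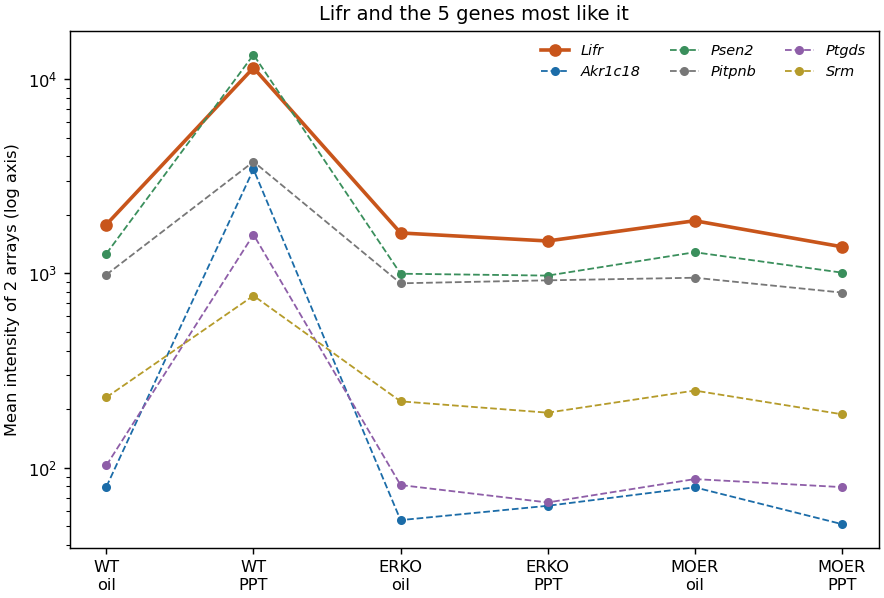
Mean intensity of 2 arrays (log axis) in the 6 groups for Lifr and the 5 genes with the highest Pearson's r to it. All 6 genes peak in WT PPT, where Lifr averaged 11434 and Srm 767.

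The other genes had their own closest patterns. Egfr was most like Serpina7, which encodes thyroxine-binding globulin (r = 0.988; 742 in WT PPT, 5235 in MOER PPT). Il6st was most like Slc16a10, an amino acid transporter (r = 0.974; 104 in WT PPT and 490.1 in MOER PPT), and Il6ra most like Hipk3, a kinase (r = 0.970; 300.4 in WT PPT and 643 in MOER PPT). Stat3 was most like Rpn2, a subunit of the oligosaccharyltransferase (r = 0.979), and the oestrogen sulfotransferase Sult1e1, also among its 3 closest (r = 0.952), averaged 122 in MOER oil and 1213 in MOER PPT. Osmr was most like Snx10 (r = 0.967), Socs3 like the small heat shock protein Hspb8 (r = 0.957) and Cebpb like Surf4 (r = 0.964). Over the 10 arrays without WT PPT the r of each gene named here lay between 0.890 and 0.984.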

How the data were processed

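The deposited table holds linear hybridisation intensity per probe set and array; how the authors summarised and normalised probes is not stated in the labels or the table. Cyber-T was the authors' test, per the labels, at 99.99% confidence and a change of at least 2-fold. Of 28815 probe sets, 19119 were tested, those brighter in at least 2 of 12 arrays than the array's 40th percentile (53.58 to 60.98); this percentile is the brightness limit of the text. Deposited intensities were transformed as log2(intensity + 16) and fitted with limma 3.58.1 in R 4.3.3 (lmFit, eBayes without trend, 6 group means, 9 contrasts, no replicate block, two-sided). All groups share 1 estimate of the spread, with 6 residual degrees of freedom (10.47 moderated), and p-values were adjusted over all probe sets by the Benjamini-Hochberg method. The number of arrays limits the precision. The script was tested on simulated data. Genes were named from GEO's platform annotation (21780 probe sets with 1 symbol). All 9 listed genes with a probe set were found in RefSeq's GRCm38.p6 table. All listed genes are named; companion genes are named where called, up to 4 a list and response by smallest p, besides those said to be picked by a result; the closest patterns are 5 genes for Lifr and 3 for the others. The members, lists and tests were chosen with earlier results of these data known. A group was dim where both arrays lay under the limit; "at least" folds set such arrays to the limit. The alternatives were other pseudocounts, filters, normalisations and tests, a replicate block, fits of the compared arrays alone, the mean of a gene's probe sets, and leaving out each array.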

Additional observations from a re-analysis of the deposited data

Results flagged for a closer look

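The responses to PPT of these genes differed between genotypes by a limma test of the difference itself, in 19 cases (Benjamini-Hochberg adjusted p under 0.05; values are differences of log2 responses). In WT minus MOER the differences were 3.11 for Lifr, -1.29 for Il6ra, -1.43 for Il6st, -1.12 for Osmr, -0.73 for Stat3, -0.90 for Socs3 and -2.18 for Egfr. In WT minus ERKO they were 2.80 for Lifr, -0.61 for Il6ra, -0.90 for Il6st, -0.52 for Osmr, 0.45 for Stat3, -0.53 for Socs3, 0.79 for Cebpb (0.51 without ERKO oil replicate 1 and 1.06 without replicate 2) and -1.93 for Egfr. In MOER minus ERKO they were 0.68 for Il6ra, 0.52 for Il6st, 0.60 for Osmr and 1.18 for Stat3. The adjusted p-values ran from 4.99e-08 for Lifr in WT minus MOER to 0.0354 for Osmr in WT minus ERKO. The 3 sets share arrays with one another and are not independent.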

How the results depend on the processing

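Of 810 values of called gene results recomputed under the 22 alternative settings other than the Cyber-T-style test, 676 were still called in the same direction and 0 changed sign; of 765 values of results not called, 27 were called. The number of the 8 genes called changed by over 1.5 times as follows. With no filter it was 2 for the ERKO response (4 in the text), 2 for MOER minus ERKO (4), 0 for MOER against WT under oil (2) and 0 for MOER against ERKO under oil (1). With the fit of the compared arrays alone it was 0 for the ERKO response, 2 for MOER minus ERKO, 5 for WT minus ERKO (8), and 0 for both oil comparisons of MOER. MOER against WT under oil gave 1 with median centring, 1 with quantile normalisation and 1 with the replicate block. MOER against ERKO under oil gave 0 with a pseudocount of 1, 0 with median centring, 0 with the replicate block, 2 with the 60th percentile filter and 2 with quantile normalisation. At the authors' threshold a Cyber-T-style test called 2 genes in WT (5 in the text; Lifr and Egfr), 0 in ERKO, 0 in MOER (6), and 0 in both oil comparisons of MOER. With an array left out, the count ran from 5 to 6 for the WT response, 0 to 4 for ERKO, 4 to 8 for MOER, 7 to 8 for WT minus MOER, 4 to 8 for WT minus ERKO, 2 to 6 for MOER minus ERKO, and 0 to 3 for each oil comparison. Without ERKO oil replicate 2 it was 8 for the MOER response, 6 for MOER minus ERKO and 3 for MOER against WT under oil. Arrays with the same replicate number deviated together in some pairs of groups but not in most. Their r ran from -0.147 to 0.377 over 15 pairs, with 5 above 0.1 and 9 below 0. With 2 arrays a group, these values do not settle whether the numbers pair the arrays. With the replicate block in the limma fit, Stat3 in ERKO missed the threshold (adjusted p = 0.0525). Egfr missed it in both oil comparisons of MOER (adjusted p = 0.0523 and 0.0697), and no other call of a listed gene changed. Cebpd and WT Osmr under PPT are limited by signal near background.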
